A study of Sus scrofa with 11 samples.

Results

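CXCL9, CXCL10, CXCL11, CCL16, CCL2, CCL5 and CXCL12 are genes of secreted chemokines, and CXCR3 is the receptor of the first 3. These 8 genes were listed by name, and the list was chosen by the measured pattern of 2 of them: CXCL9 was high at 20 and 30 Gy, and CCL16 was low at 40 Gy. The deposited table held 7 of the 8, out of 12505 genes in all, and CXCR3 was not analysed here. All 7 passed the filter on low values, which asked for at least 1 FPKM (fragments per kilobase of transcript per 1000000 mapped fragments) in at least 2 libraries and kept 11644 genes.

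The study profiled liver RNA of pigs whose livers had been irradiated, in 11 libraries. The 2 control libraries carry the label day 0, and 3 libraries each at 20, 30 and 40 Gy carry the label day 35. Every group is labelled wild type, with liver as the tissue and hepatocyte as the cell type, and no label names a line, an agent other than radiation or an age. The labels do not say that the libraries of a group came from separate animals, so p-values measure only the spread between these libraries, which may be technical. All irradiated libraries also differ from the controls in day, so radiation and elapsed time cannot be told apart against control. The 3 doses share a day, and differences between them do not carry that limit.

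Chemokines are small proteins that bind receptors on leukocytes and steer them into tissue. CXCL9, CXCL10 and CXCL11 are induced by interferons and draw activated T cells and NK cells, CCL2 draws monocytes, and CCL5 draws T cells and monocytes and is itself made by activated T and NK cells. CCL16 is made by hepatocytes, and CXCL12 is made by stromal and endothelial cells and acts on CXCR4.

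Hepatocyte transcripts dominated every library, with ALB between 7050.0 and 42547 FPKM, but markers of T and NK cells, macrophages and endothelium were also measured, so the libraries held RNA of more than the labelled cell type. In such bulk RNA, fewer cells of a type and less RNA per cell cannot be told apart. 2 pairs of libraries were nearly alike: 20 Gy library 3 with 30 Gy library 3, and 30 Gy library 1 with 30 Gy library 2. The spread of the log2 difference between libraries was 0.102 and 0.11 in these pairs and 0.257 to 0.845 in the other 53 pairs. Sampling noise is unknown without counts, and the 30 Gy pair was counted as 1 sample in means and SDs. 40 Gy library 1 stood apart from the other 40 Gy libraries for several of the genes below, and where leaving it out changed a member's call, both values are given. With the 30 Gy pair averaged and 20 Gy library 3 and 30 Gy library 3 left out, fewer libraries enter the fit and most calls named below no longer passed. Those of ACKR2 at each dose, CXCR4 at 40 Gy against control and JCHAIN at 40 Gy against control passed in that setting as well. CCL11 passed too, but it entered the test only through the 40 Gy libraries, where it was high. XCR1 and TBX21 were below the filter of that setting. Fold changes are differences of log2(FPKM + 1), which understate the change of low genes.

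CXCL9 (ENSSSCG00000032777, chromosome 8, 71665541 to 71670236 in RefSeq's Sscrofa11.1 annotation) was the member with the clearest separation by dose. It measured 2.53 and 2.15 FPKM in the control libraries. The values were 79.4, 67.3 and 90.3 FPKM at 20 Gy, 77.6, 77.4 and 93.6 FPKM at 30 Gy, and 2.60, 0.78 and 0.845 FPKM at 40 Gy. All 6 libraries at 20 and 30 Gy lay far above the other 5, and at 40 Gy library 1 lay just above the controls and the other two below them. Group means were 2.34 ± 0.264 FPKM in control (SD, n = 2), 79.0 ± 11.5 at 20 Gy (SD, n = 3), 85.5 ± 11.4 at 30 Gy (SD, n = 2) and 1.41 ± 1.03 at 40 Gy (SD, n = 3).

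The described log2 differences of CXCL9 from control were 4.57 at 20 Gy, 4.65 at 30 Gy and -0.55 at 40 Gy. CXCL9 was selected on these contrasts, so they carry no test. With the 30 Gy pair averaged and 20 Gy library 3 and 30 Gy library 3 left out, the first 2 were 4.47 and 4.56. The comparison of 30 with 20 Gy, which the selection did not use, gave a log2 difference of 0.07 (SE 0.261, adjusted p = 1.0, limma with Benjamini-Hochberg adjustment), and the libraries of both doses overlapped. Among the genes of each library, CXCL9 ranked between 680 and 969 at 20 and 30 Gy and no higher than 8188 elsewhere.

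**Figure D1:**
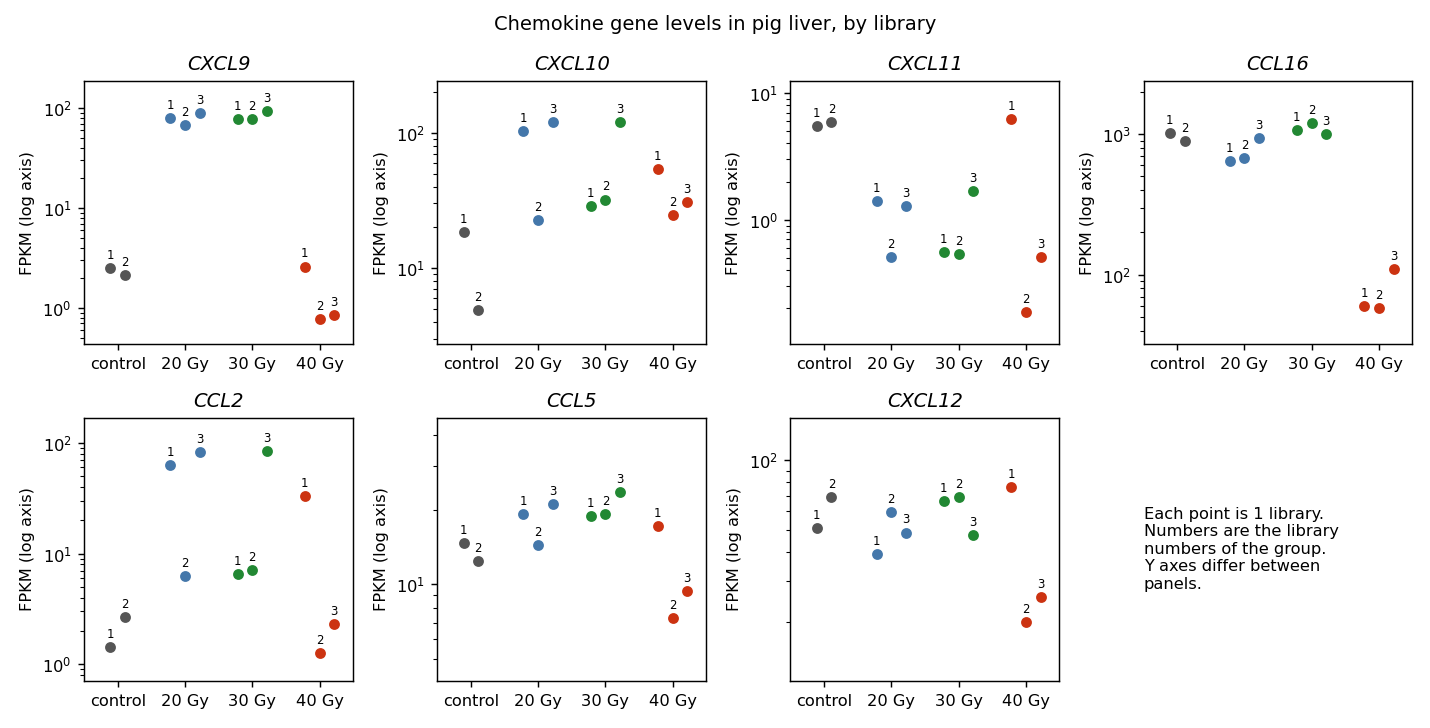
FPKM on a log axis of the 7 measured chemokine genes in each of 11 pig liver libraries, grouped by dose, with library numbers beside the points. CXCL9 lies between 67.3 and 93.6 FPKM in all 6 libraries at 20 and 30 Gy, CCL16 lies at 59.6, 57.7 and 109.9 FPKM at 40 Gy, and CCL2 and CXCL10 vary most over the 6 libraries at 20 and 30 Gy.

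CXCL10 (ENSSSCG00000032474, chromosome 8, 71693641 to 71695948) lies 23.4 kb from CXCL9 and overlaps ART3, so its reads could be shared with that gene. Its FPKM was 18.4 and 4.90 in control, 103, 22.7 and 121 at 20 Gy, 28.6, 32.1 and 120.1 at 30 Gy, and 53.9, 24.6 and 31.0 at 40 Gy. Every irradiated library lay above both controls, and within 20 and 30 Gy 3 libraries lay at 103 FPKM or more and 3 at 32.1 or less. The means were 11.6 ± 9.53 FPKM in control (SD, n = 2), 82.2 ± 52.4 at 20 Gy (SD, n = 3), 75.2 ± 63.5 at 30 Gy (SD, n = 2) and 36.5 ± 15.4 at 40 Gy (SD, n = 3).

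No dose passed the test for CXCL10. Against control its log2 difference was 2.65 at 20 Gy (SE 0.825, adjusted p = 0.102), 2.20 at 30 Gy (adjusted p = 0.207) and 1.73 at 40 Gy (adjusted p = 0.227). Without 20 Gy library 2, the difference at 20 Gy was 3.40 with an adjusted p of 0.0373. At 40 Gy CXCL10 stood at 24.6 FPKM or more while CXCL9 was at 2.60 or less, and 40 Gy differed from the mean of 20 and 30 Gy by -0.69 for CXCL10 (SE 0.639, adjusted p = 0.458).

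CXCL11 (ENSSSCG00000008978, chromosome 8, 71713790 to 71725669, also overlapping ART3) lies 17.8 kb beyond CXCL10 and had the lowest level of the 3 CXCR3 ligands at 20 and 30 Gy. It measured 5.50 and 5.89 FPKM in control, 1.40, 0.505 and 1.29 at 20 Gy, 0.552, 0.534 and 1.67 at 30 Gy, and 6.20, 0.188 and 0.504 at 40 Gy. All libraries at 20 and 30 Gy lay below both controls, and at 40 Gy library 1 lay above the controls and the other two far below them. The log2 differences were -1.73 at 20 Gy (SE 0.632, adjusted p = 0.146), -1.85 at 30 Gy (adjusted p = 0.168) and -1.51 at 40 Gy (adjusted p = 0.172). Without 40 Gy library 1, whose removal lowers the spread shared by all groups, CXCL11 passed at each dose, with adjusted p of 0.00542, 0.00458 and 0.00118 and a log2 difference of -2.32 at 40 Gy.

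Thus the 3 neighbouring genes, which share the receptor CXCR3, had different orders of level across the groups. The ratio of CXCL9 to CXCL10, both in FPKM and so per length, was 0.137 and 0.44 in control, 0.77, 2.97 and 0.746 at 20 Gy, 2.72, 2.41 and 0.779 at 30 Gy, and 0.0483, 0.0317 and 0.0273 at 40 Gy. The ratio exceeded every control value in all 6 libraries at 20 and 30 Gy and was below every control value in all 3 at 40 Gy. The ratio of CXCL9 to CXCL11 was 0.459 and 0.366 in control, between 55.9 and 145 at 20 and 30 Gy, and 0.419, 4.14 and 1.68 at 40 Gy, where 2 of the 3 libraries lay above the controls. CXCL9 values chose the list, so these ratios are a description with no test.

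**Figure D2:**
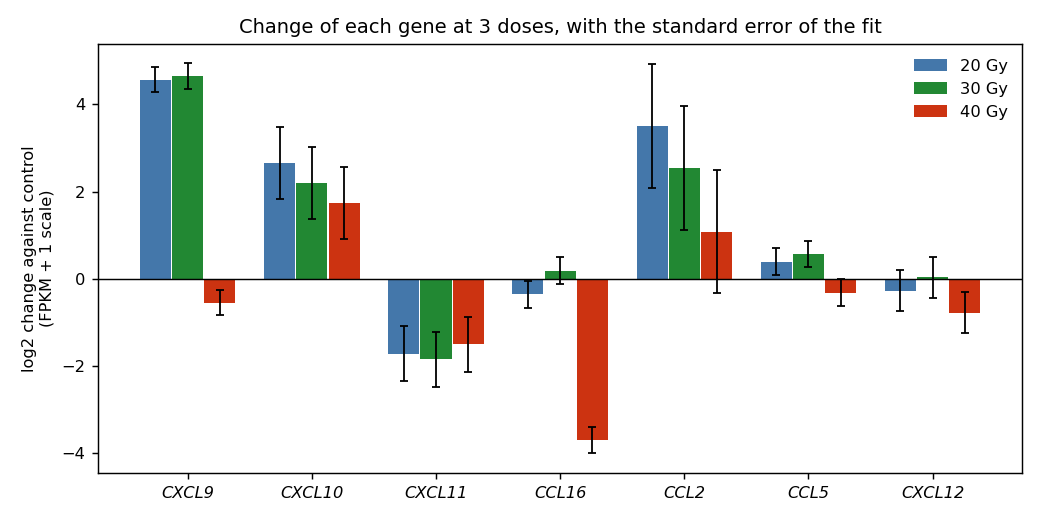
Log2 change against control, on the FPKM + 1 scale, of the 7 chemokine genes at 20, 30 and 40 Gy; bars are the fitted differences of group means and error bars their standard errors. CXCL9 stands at 4.57 and 4.65 at 20 and 30 Gy and at -0.55 at 40 Gy, and CCL16 stands at -3.71 at 40 Gy.

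CCL16 (ENSSSCG00000040940, chromosome 12, 39618187 to 39621557) was among the most abundant transcripts of control liver, ranking between 76 and 113 in every library of control, 20 and 30 Gy. Its FPKM was 1023 and 894 in control, 645, 677 and 945 at 20 Gy, 1066, 1193 and 1002 at 30 Gy, and 59.6, 57.7 and 109.9 at 40 Gy. The 3 libraries at 40 Gy lay below all the others, with no overlap. The means were 958 ± 91.5 FPKM in control (SD, n = 2), 756 ± 165 at 20 Gy (SD, n = 3), 1065 ± 90.2 at 30 Gy (SD, n = 2) and 75.7 ± 29.6 at 40 Gy (SD, n = 3).

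The described log2 difference of CCL16 at 40 Gy was -3.71 against control and -3.62 against the mean of 20 and 30 Gy, with no test because CCL16 was selected on it. These were -3.71 and -3.56 with the near-identical libraries averaged or left out. Against control the difference was -0.36 at 20 Gy, which became 0.05 with quantile normalization, and 0.18 at 30 Gy. All 3 libraries at 30 Gy lay above all 3 at 20 Gy, and this comparison, not used in the selection, gave a log2 difference of 0.54 (SE 0.273, adjusted p = 1.0).

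Some transcripts of other hepatocyte products were also lower at 40 Gy and some were not. Of 20 hepatocyte markers tested, 4 fell at 40 Gy against control (ALB, APOC3, TTR and ASGR1) and none rose, against 7.39% of all genes called in this comparison. The median log2 difference was -0.38 against 0.06 over all genes, and the call of TTR was lost in 10 of 21 alternatives. FGB, a fibrinogen chain named after its values were seen, measured 9444 and 4731 FPKM in control and 4958, 14372 and 16233 at 40 Gy. ALB, which encodes serum albumin, fell by 2.06 (SE 0.301, adjusted p = 0.0045). The summed FPKM of the 20 markers was 83028 to 128916 in control, 76766 to 95839 at 20 Gy, 84275 to 104019.8 at 30 Gy and 58471 to 70268 at 40 Gy. As a description that follows in part from how CCL16 was chosen, per 1000 FPKM of ALB it measured 24.0 and 33.1 FPKM in control, 21.0 to 33.5 at 20 and 30 Gy, and 5.51, 8.11 and 15.6 at 40 Gy. The part of hepatocyte RNA content in the level of CCL16 was not tested.

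CCL14, which lies 2.1 kb from CCL16 and was named after its values were seen, had no such drop at 40 Gy. It measured 17.9 and 21.8 FPKM in control, 9.47, 24.2 and 12.7 at 20 Gy, 23.7, 26.2 and 12 at 30 Gy, and 10.4, 18.8 and 24.0 at 40 Gy, so every irradiated group overlapped the controls. The ratio of CCL16 to CCL14 was 27.9 to 83.6 in the 8 libraries of control, 20 and 30 Gy and 5.75, 3.08 and 4.58 at 40 Gy. Of the summed FPKM of all 22 chemokine ligands in the table, CCL16 made up 38.3% to 58.1% in control, 20 and 30 Gy and 8.3%, 14.5% and 20.8% at 40 Gy. CCL4, whose level is uncertain as described below, made up much of the rest, with 1208 of 2422 FPKM in control library 1.

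CCL5 (ENSSSCG00000017705, chromosome 12, 39652731 to 39659121) lies 31.2 kb from CCL16 and passed the test in 1 comparison, 40 Gy against the lower doses. Its FPKM was 14.7 and 12.4 in control, 19.2, 14.4 and 21.0 at 20 Gy, 18.8, 19.2 and 23.5 at 30 Gy, and 17.1, 7.32 and 9.37 at 40 Gy. All 30 Gy libraries lay above both controls, the 20 Gy libraries overlapped them, and 40 Gy libraries 2 and 3 were the lowest of all 11. The log2 difference from control was 0.39 at 20 Gy (adjusted p = 0.476), 0.56 at 30 Gy (adjusted p = 0.404) and -0.32 at 40 Gy (adjusted p = 0.552).

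CCL5 fell by 0.80 on the log2 scale at 40 Gy against the mean of 20 and 30 Gy (SE 0.235, adjusted p = 0.0373, limma with Benjamini-Hochberg adjustment), although 40 Gy library 1 overlapped the lower doses. The call is not stable: its adjusted p ranged from 0.00132 to 0.28 over 21 alternative settings, missed 0.05 in 12 of them, and was 0.28 once the near-identical libraries were averaged or left out. 2508 of 11644 genes passed in this comparison, which is 21.5%, and CCL5 was the 1 that passed of the 5 chemokine genes tested there.

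Some markers of T and NK cells, a source of CCL5, were lower in the same comparison. Of 16 markers tested, 7 fell at 40 Gy against the mean of 20 and 30 Gy, CD3E and GNLY among them, and none rose, against 21.5% of all genes called, with a median of -0.69 against 0.07 over all genes. The calls of CD5 and CD8A were lost in 12 and 11 of 21 alternatives. CD6, a T cell surface receptor named after its values were seen, went the other way in 40 Gy libraries 2 and 3, with 8.55 FPKM or more against 0.977 to 1.72 at 20 and 30 Gy (log2 difference 1.39, SE 0.472, adjusted p = 0.0601). CD3E, a chain of the T cell receptor complex, measured 1.65 to 2.34 FPKM at 20 and 30 Gy and 1.25, 0.402 and 0.579 at 40 Gy, a log2 difference of -0.77 (SE 0.16, adjusted p = 0.00953). GNLY, a granule protein of killer lymphocytes, fell by 1.33 (SE 0.246, adjusted p = 0.00564) and was listed at 0 in 40 Gy library 2. The summed FPKM of 17 markers was 31.9 to 34.7 in control, 49.9 to 51.4 at 20 Gy, 44.2 to 47.3 at 30 Gy, and 29.1 to 65.2 at 40 Gy, where library 1 was the highest of all. The part of T and NK cell content in the level of CCL5 or CXCL9 was not tested.

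CCL2 (ENSSSCG00000017723, chromosome 12, 40798109 to 40800013) varied more over the 20 and 30 Gy libraries than any other member. It measured 1.42 and 2.69 FPKM in control, 63.2, 6.27 and 83.4 at 20 Gy, 6.54, 7.10 and 84.4 at 30 Gy, and 32.9, 1.27 and 2.30 at 40 Gy. All 6 libraries at 20 and 30 Gy lay above both controls, with 3 of them at 63.2 FPKM or more and 3 at 7.10 or less. The highest of these 6 was 13.5 times the lowest, against 5.34 times for CXCL10, 1.85 for CCL16, 1.63 for CCL5 and 1.39 for CXCL9.

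The CCL2 differences did not pass the test: the log2 difference was 3.51 at 20 Gy (SE 1.42, adjusted p = 0.185), 2.54 at 30 Gy (adjusted p = 0.422) and 1.08 at 40 Gy (adjusted p = 0.682). Against the mean of 20 and 30 Gy, 40 Gy differed by -1.94 (SE 1.1, adjusted p = 0.225), and without 40 Gy library 1 by -3.15 (adjusted p = 0.0432).

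CXCL12 (ENSSSCG00000034973, chromosome 14, 91516383 to 91543857) had the smallest log2 differences from control at 20 and 30 Gy of the 7 members. Its FPKM was 50.6 and 68.9 in control, 39.4, 59.7 and 48.6 at 20 Gy, 66.6, 69.0 and 47.6 at 30 Gy, and 76.1, 20.0 and 25.6 at 40 Gy. 40 Gy library 1 was the highest of all 11 and 40 Gy libraries 2 and 3 were the lowest. The log2 difference from control was -0.28 at 20 Gy (adjusted p = 0.767), 0.03 at 30 Gy (adjusted p = 0.987) and -0.78 at 40 Gy (adjusted p = 0.341). Without 40 Gy library 1, CXCL12 passed at 40 Gy with -1.35 against control (adjusted p = 0.00815) and -1.22 against the mean of 20 and 30 Gy (adjusted p = 0.00253).

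Among the 5 members that the selection did not use, none passed limma's test against control at 20 Gy (4.23% of all genes passed), at 30 Gy (3.03%) or at 40 Gy (7.39%). At an unadjusted p under 0.05 the counts were 3, 2 and 1 of 5, against 22.0%, 16.5% and 24.8% of all genes, and limma without the variance trend also called 0 at each dose. At 20 Gy 2 of the 5 lay wholly above the controls (CXCL10 and CCL2) and 1 wholly below (CXCL11), against 19.1% and 23.2% of all genes. At 30 Gy the counts were 3 above (CCL5 besides those named) and 1 below, against 20.1% and 23.3%, and at 40 Gy 1 above (CXCL10) and 0 below, against 19.5% and 17.9%. Between 30 and 20 Gy none of the 7 members passed, none did at an unadjusted p under 0.05 or without the trend, and 0.0% of all genes passed (280 of 11644, or 2.4%, at an unadjusted p under 0.05). The libraries of 30 Gy lay wholly above those of 20 Gy for 1 of the 7, CCL16, and wholly below for 0, against 5.11% and 4.84% of all genes.

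The rest of the ligand family was taken from a list of 37 further chemokine ligands, of which 15 were in the table and 12 were tested. At 20 and 30 Gy limma called none of the 12 against control. At 40 Gy 1 rose (CCL11) and 1 fell (CCL4) against control, where 7.39% of all genes were called. Against the mean of 20 and 30 Gy 1 rose (CCL11) and 4 fell (CCL4, CCL19, CCL21 and CCL25), with a median of -0.76. In that comparison 21.5% of all genes were called. The CCL11 calls are a description, for the reason given below.

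CCL11, an eosinophil attractant that lies 15.2 kb from CCL2, was near 0 outside 40 Gy. It was listed at 0 and 0.0493 FPKM in control, at no more than 0.0663 at 20 and 30 Gy, and measured 3.46, 7.02 and 10.1 FPKM at 40 Gy. CCL11 passed the filter on low values only through the 40 Gy libraries, where it was high, so its calls are given as a description. The log2 difference at 40 Gy was 2.84 against control (SE 0.303) and 2.82 against 20 and 30 Gy (SE 0.235). Its neighbour CCL2 had 2 of 3 libraries at 40 Gy at control levels.

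CCL19 and CCL21, ligands of CCR7 that guide T cells and dendritic cells, fell at 40 Gy against the mean of 20 and 30 Gy. CCL19 measured 9.41 to 30.2 FPKM at 20 and 30 Gy and 7.30, 3.51 and 5.88 at 40 Gy (log2 difference -1.54, SE 0.38, adjusted p = 0.019). CCL21 measured 16.7 to 21.7 FPKM at the lower doses and 13.3, 6.27 and 10.4 at 40 Gy (-0.95, SE 0.202, adjusted p = 0.0102). CCL25, known for drawing lymphocytes to gut and thymus, fell by 0.85 (SE 0.207, adjusted p = 0.018).

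CCL4, an attractant of monocytes and T cells, was listed at 1208 and 568 FPKM in control and at 361, 179 and 214 at 40 Gy. It fell by 1.78 against control (SE 0.381, adjusted p = 0.0218) and by 1.11 against 20 and 30 Gy (SE 0.295, adjusted p = 0.0254). Genes of this cluster resemble each other in sequence, so the level of CCL4 is uncertain. The fall missed 0.05 in 5 of 21 alternatives against control and in 8 of 21 against the lower doses.

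**Figure D3:**
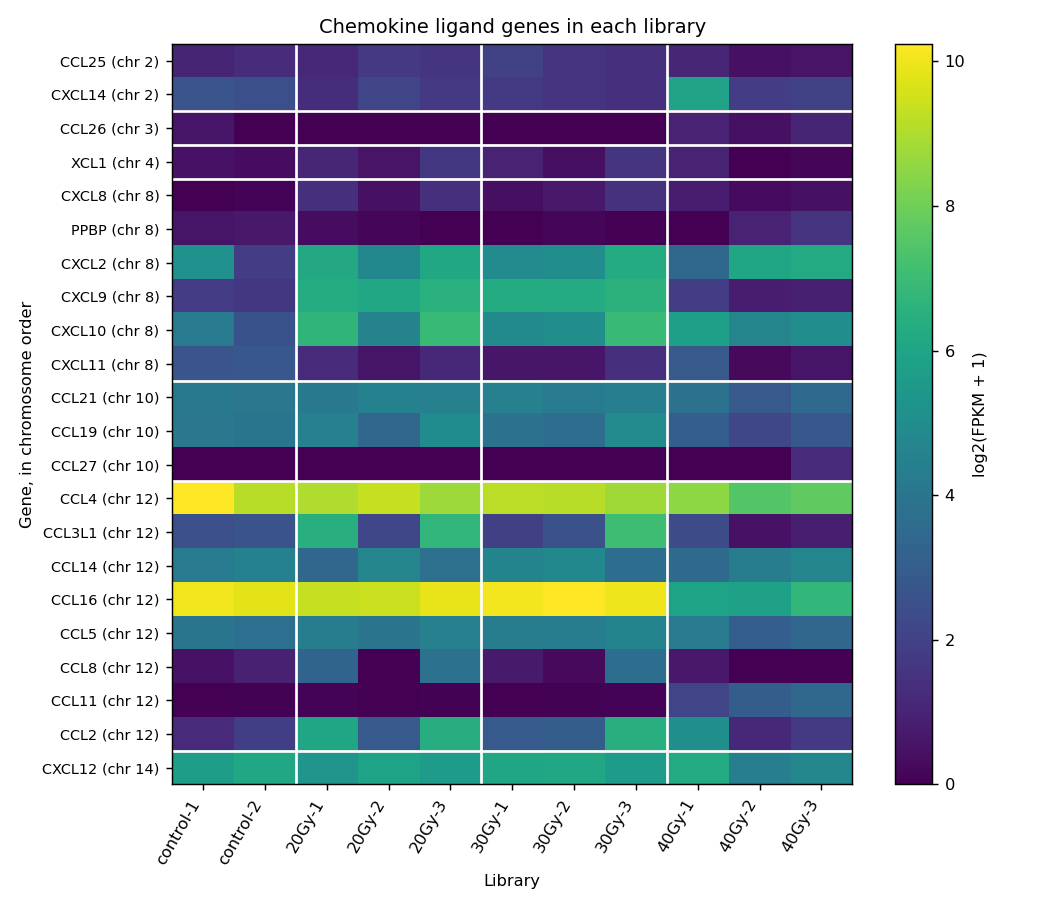
Level of the 22 chemokine ligand genes in the table, as log2(FPKM + 1) by colour, in 11 libraries; rows follow chromosome order and white lines separate chromosomes and dose groups. Compared within a row, CXCL9 is brighter in all 6 libraries at 20 and 30 Gy than elsewhere, and CCL16 is darker at 40 Gy. CCL14 has no such drop at 40 Gy. Within their rows CCL2, CCL3L1 and CCL8 are brightest in 20 Gy libraries 1 and 3 and 30 Gy library 3.

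Several ligands were high in the same libraries as CCL2. CCL3L1, an inflammatory CC chemokine, measured 83.8, 3.51 and 105 FPKM at 20 Gy and 2.83, 4.76 and 132 at 30 Gy, against 4.59 and 5.17 in control. CCL8, a relative of CCL2, measured 8.79 and 13.3 FPKM in 20 Gy libraries 1 and 3, was listed at 0 in library 2, and measured 0.653, 0.182 and 12.1 at 30 Gy. Both were named after their values were seen. For CCL2, CXCL10, CCL3L1, CCL8 and, by a small margin, CXCL9, the 3 highest libraries were 20 Gy libraries 1 and 3 and 30 Gy library 3. Of these, 20 Gy library 3 and 30 Gy library 3 are near-identical, so they are not 3 independent observations.

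TNFAIP3, an inducible inhibitor of NF-kB named here after its values were seen, measured 31.8, 2.22 and 24.6 FPKM at 20 Gy and 2.20, 1.96 and 25.6 at 30 Gy, with 2.99 and 2.40 in control. The summed FPKM of the 14 genes of the NF-kB and inflammatory cytokine list was 382, 201 and 386 at 20 Gy and 190.4, 185 and 401 at 30 Gy. None of its 13 tested genes passed limma's test in any comparison. CXCL9 had the same order with a much smaller gap. It measured 79.4 and 90.3 FPKM in 20 Gy libraries 1 and 3 and 93.6 in 30 Gy library 3. In 20 Gy library 2 it measured 67.3 FPKM, and in 30 Gy libraries 1 and 2 it measured 77.6 and 77.4.

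**Figure D4:**
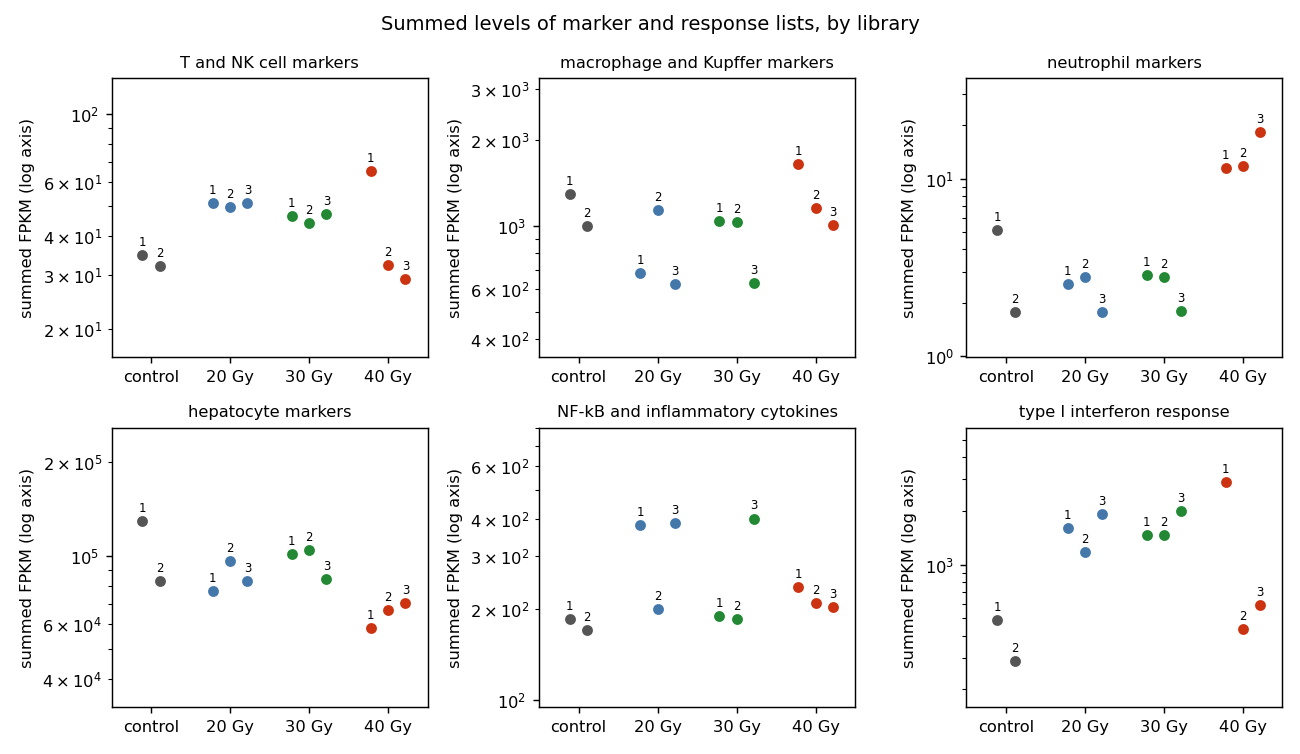
Summed FPKM on a log axis of 6 gene lists (T and NK cell, macrophage, neutrophil and hepatocyte markers, NF-kB and inflammatory cytokines, type I interferon response) in each library, by dose, with library numbers. The T and NK cell sum lies at 44.2 to 51.4 FPKM in the 6 libraries at 20 and 30 Gy, and the NF-kB sum splits them at 382 or more and 201 or less.

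Interferon gamma is the classical inducer of CXCL9, and its pathway genes were measured as far as the table holds them; IFNG itself was not analysed here. Of 14 signalling genes tested, none passed at 20 or 30 Gy against control, where 4.23% and 3.03% of all genes were called. At 40 Gy 1 passed, where 7.39% of all genes were called. This was IFNGR2, a chain of the interferon gamma receptor, with 1.03 (SE 0.26, adjusted p = 0.042), a call lost in 11 of 21 alternatives. Against the mean of 20 and 30 Gy, 6 rose at 40 Gy (STAT2, IFNGR1, JAK2, IL18 and IFNGR2 among them) and 1 fell (TBX21, a transcription factor of T helper and NK cells), against 21.5% of all genes called, with a median of 0.68 against 0.07 over all genes. The calls of JAK1 and IL18 were lost in 11 and 9 of 21 alternatives. TBX21 passed the filter on low values only through libraries of the lower doses, where it was high. IFNGR2 measured 17.9 to 26.6 FPKM at the lower doses and 70.0, 49.2 and 48.1 at 40 Gy (1.29, SE 0.201, adjusted p = 0.0027).

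IRF1, an interferon-induced transcription factor, measured 17.0 and 15.3 FPKM in control, 39.3, 14.1 and 43.8 at 20 Gy, 14.3, 12.4 and 43.4 at 30 Gy, and 24.0, 9.39 and 9.93 at 40 Gy. IRF1 was thus high in the libraries with high CCL2 and not in all with high CXCL9.

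Of 21 further genes known to be induced by interferon gamma, limma called none at any dose against control, and 1 fell at 40 Gy against the lower doses (GBP2, a guanylate-binding protein, by 0.54, SE 0.155, adjusted p = 0.034), where 21.5% of all genes were called. The GBP2 call was lost in 9 of 21 alternatives. The medians of the 21 were 0.26, 0.33 and -0.04 at 20, 30 and 40 Gy against control. Of 25 genes of the type I interferon response, 1 rose at 40 Gy in both comparisons: RIGI, a sensor of viral RNA, by 1.64 against control (SE 0.389, adjusted p = 0.0334). The calls of RIGI were lost in 10 of 21 alternatives against control and in 13 against the lower doses, and 1 of 25 is below the share of all genes called in both comparisons (7.39% and 21.5%). The summed FPKM of these 25 was 287 to 486 in control, 1169.9 to 1987 at 20 and 30 Gy and 437 to 2902 at 40 Gy, with 40 Gy library 1 the highest. IFI6 alone accounts for 735 to 1359 FPKM at 20 and 30 Gy, so the sum says little about the other genes. The medians of the 25 were 0.66, 0.59 and 0.65 at 20, 30 and 40 Gy against control. Over all genes these medians were -0.03, -0.02 and 0.06. None of the 25 passed at 20 or 30 Gy against control.

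Among the receptors, a list of 24 genes, which also holds the chemokine-trimming peptidase DPP4, gave 14 in the table, 13 of them tested. ACKR2, a scavenger receptor that removes inflammatory CC chemokines such as CCL2 and CCL5, was low in every irradiated library. It measured 13.6 and 11.5 FPKM in control, 0.415, 1.01 and 0.41 at 20 Gy, 0.824, 0.794 and 0.264 at 30 Gy, and 0.889, 1.02 and 0.667 at 40 Gy. It fell by 3.09 (SE 0.227, adjusted p = 0.000138), 3.07 (adjusted p = 0.000144) and 2.86 (adjusted p = 0.000402) on the log2 scale, and passed in all 21 alternatives at each dose. ACKR2 overlaps ZNF662 on chromosome 13, and whether the counting used the strand is unknown here.

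CXCR4, the signalling receptor of CXCL12, was highest at 40 Gy. It measured 0.187 and 0.448 FPKM in control, 0.674 to 2.05 at 20 and 30 Gy and 3.29, 5.48 and 4.14 at 40 Gy. It rose by 2.0 against control (SE 0.273, adjusted p = 0.00341) and by 1.11 against 20 and 30 Gy (SE 0.211, adjusted p = 0.00631). In 40 Gy libraries 2 and 3, high CXCR4 stood beside the lowest CXCL12 of the 11 libraries. ACKR3, the scavenger receptor of CXCL12, measured 1.56 and 1.85 FPKM in control, 3.28 to 5.39 at 20 and 30 Gy and 5.61, 1.92 and 1.29 at 40 Gy, and passed in no comparison.

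CCR1, a receptor of CCL5 and of CCL16, measured 0.149 to 1.23 FPKM at 20 and 30 Gy and 4.39, 2.36 and 1.03 at 40 Gy, and its call at 40 Gy against the lower doses (1.03, adjusted p = 0.0397) was lost in 12 of 21 alternatives. XCR1, a receptor of cross-presenting dendritic cells whose annotated span overlaps CCR1, fell by 0.88 in the same comparison (SE 0.154, adjusted p = 0.00451). Its level was 0.841 to 1.52 FPKM at 20 and 30 Gy and 0.346, 0.0162 and 0.0477 at 40 Gy. XCR1 passed the filter on low values only through libraries of these lower doses, where it was high, so its call is given as a description. With 20 Gy library 3 and 30 Gy library 3 left out it fell below that filter.

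The genes whose levels most resembled CXCL9 across the 11 libraries were searched among 6526 genes by Pearson's r of log2(FPKM + 1). They were DVL2 (r = 0.986), CAV2 (0.986), CALML4 (0.985), OPLAH (0.982) and VPS13D (0.981). DVL2 measured 10.5 and 11.5 FPKM in control, 71.4 to 129 at 20 and 30 Gy, and 9.94, 4.89 and 3.52 at 40 Gy. For CCL16 they were SH3YL1 (0.977), SPAG8 (0.975), LTC4S (0.972), TERF2 (0.97) and NDUFS6 (0.966). LTC4S, the enzyme that makes leukotriene C, measured 265 to 477 FPKM in the 8 libraries of control, 20 and 30 Gy and 59.0, 21.9 and 45.1 at 40 Gy. These likenesses describe 11 libraries in 4 groups that share dose, and none of the named genes stayed among the 5 closest when ranked by Spearman's rho.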

How the data were processed

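RNA of 11 pig liver libraries was compared between 4 groups given by the labels. The authors deposited 1 table of FPKM values for 12505 genes, per the file headers. HISAT2, Cufflinks, HTSeq and the builds Sscrofa11.1 and mm10 are named in the submitters' processing notes, with no role or order. The gene IDs are those of pig, and the sources used here give no annotation, filter or strand use. Gene coordinates are from RefSeq's Sscrofa11.1 annotation, matched by gene ID. FPKM is relative to each library's total, so a few abundant genes can lower all the others. Depth is unknown: low values held no shared whole-read step (at most 4.76% of low values in a pair of libraries shared one), so no count test was possible.

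The 11644 genes that reached 1 FPKM in 2 or more libraries were tested on log2(FPKM + 1) with limma 3.58.1 in R 4.3.3, with trended variances, all 4 groups sharing 1 spread, two-sided, with Benjamini-Hochberg adjustment over all 11644 genes and a threshold of 0.05. The fit was tested on simulated data. 5 contrasts were fitted, each dose against control, 40 Gy against the mean of 20 and 30 Gy, and 30 against 20 Gy. Each of the 5 shares control or dose libraries with others. The fits used all 11 libraries, near-identical ones included. Replicate numbers were checked for pairing: over 15 same-number pairs the correlation of deviations ran from -0.616 to 0.645, and they do not pair the libraries.

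The members and lists were chosen with earlier results of these data known. Named genes were the members, their known receptors, IFNG and IRF1 where measured, at most 6 genes per list that passed with at least 1 FPKM and no overlap between groups, and the 5 genes most like CXCL9 and CCL16. CCL14, CCL3L1, CCL8, CXCL14, TNFAIP3, FGB and CD6 were added after their values were seen. Some genes that this rule names are not reported here. Alternatives were the pseudocount, the filter, normalization, the variance trend, the replicate block, near-identical libraries averaged or left out, and each library left out.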

Additional observations from a re-analysis of the deposited data

Results flagged for a closer look

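CCL5 passed a test of the difference between 40 Gy and the lower doses: -0.80 on the log2 scale against the mean of 20 and 30 Gy (SE 0.235, adjusted p = 0.0373, limma). The 3 libraries at 40 Gy measured 17.1, 7.32 and 9.37 FPKM and the 6 libraries at 20 and 30 Gy measured 14.4 to 23.5 FPKM, so library 1 of 40 Gy lay within the range of the lower doses. The call is not stable, since limma's adjusted p missed 0.05 in 12 of 21 alternatives. It was 0.0602 with the 30 Gy pair averaged and 0.127 with 20 Gy library 3 and 30 Gy library 3 left out. CCL5 was the 1 gene called of 5 members tested, where 21.5% of all genes were called.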

How the results depend on the processing

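With 30 Gy libraries 1 and 2 averaged, 295 genes passed at 20 Gy, 130 at 30 Gy and 548 at 40 Gy against control. With 20 Gy library 3 and 30 Gy library 3 left out, the counts were 206, 126 and 551, with 1177 at 40 Gy against 20 and 30 Gy and 2 between 30 and 20 Gy. With both changes the counts were 59, 8, 123, 202 and 1. Leaving out 1 library at a time gave 118 to 1644, 75 to 1110, 224 to 2655, 846 to 4611 and 0 to 3 genes in the same order of comparisons, with the highest of the first 4 always without 40 Gy library 1 (the main counts were 492, 353, 861, 2508 and 0).

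Counts of chemokine members that passed, leaving out 1 library at a time, were 0 to 1 at 20 Gy, 0 to 1 at 30 Gy, 0 to 2 at 40 Gy and 0 to 3 at 40 Gy against the lower doses, again highest without 40 Gy library 1. The last count was 0 with the 30 Gy pair averaged, with 20 Gy library 3 and 30 Gy library 3 left out, and with both. The CCL5 difference there was -1.12 to -0.56 leaving out 1 library, -0.82 with the pair averaged and -0.70 in the other two settings.

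With a pseudocount of 0.1 the CXCL9 difference was 5.01 at 20 Gy, 5.09 at 30 Gy and -5.94 at 40 Gy against the lower doses, and with 5 it was 3.51, 3.58 and -3.75. The CCL16 difference at 20 Gy turned to 0.05 with quantile normalization. By Spearman's rho, 0 of the 5 genes most like CXCL9 and 0 of those most like CCL16 were retained. With the replicate block, 399 genes passed at 20 Gy and 2554 at 40 Gy against the lower doses, and no call of a member changed; the numbers do not pair the libraries. Without depth, differences among the lowest genes, such as CXCL11 and CCL8, have unknown counting error.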

Other observations

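JCHAIN, the joining chain of secreted antibodies, measured 10.2 and 8.28 FPKM in control, 14.8 to 22.4 at 20 and 30 Gy and 77.4, 60.2 and 44.9 at 40 Gy, and rose at 40 Gy by 2.56 against control (SE 0.256, adjusted p = 0.00109). Of 6 B and plasma cell markers tested, 2 rose at 40 Gy against control (JCHAIN and MZB1) and 1 fell (CD79A), where 7.39% of all genes were called. Of 5 neutrophil markers tested, 2 rose at 40 Gy against control (CSF3R and S100A12) and none fell, where 7.39% of all genes were called. The calls were lost in 4 and 12 of 21 alternatives. CSF3R passed the filter on low values only through the 40 Gy libraries, where it was high, so its call is a description. Outside 40 Gy, S100A12 reached 1 FPKM only in control library 1. The summed FPKM of the 5 neutrophil markers was 1.78 to 5.12 in control and 11.5 to 18.3 at 40 Gy.

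Of 17 macrophage and Kupffer cell markers tested, CLEC4F, a Kupffer cell lectin, fell at every dose, by 2.91, 2.81 and 2.23 at 20, 30 and 40 Gy (adjusted p = 0.0189, 0.0268 and 0.0404), calls lost in 5, 8 and 14 of 21 alternatives. MARCO, a scavenger receptor, passed at 40 Gy with 3.03 (adjusted p = 0.0404), a call lost in 11 of 21. The shares of all genes called at 20, 30 and 40 Gy were 4.23%, 3.03% and 7.39%. At 20 Gy MRC1 also fell, a call lost in 9 of 21 alternatives, and at 30 Gy CLEC4F was the 1 marker of 17 that passed. Against the mean of 20 and 30 Gy, 3 markers rose at 40 Gy (CD14, CD68 and CD163) and none fell, where 21.5% of all genes were called. Those calls were lost in 3, 4 and 6 of 21 alternatives. CXCL14, a chemokine of epithelial cells, stood at 58.3 FPKM in 40 Gy library 1 and at 1.52 to 5.42 in the other 10 libraries.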
